A study of Homo sapiens with 18 samples.

Results

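SOX10 was overexpressed in A375 cells that carried a control guide RNA, and the RNA of these cells was compared with that of the same control-guide cells without it. The comparison takes 6 of the 18 libraries of the series, 3 titled A375_GFPsg_SOX10OE and 3 titled A375_GFPsg, and reads every gene of the deposited count table. A375 is an established human melanoma line that was bought from ATCC and kept in DMEM with FBS. The guide in all 6 libraries is aimed at GFP, which human cells lack, so guide delivery is common to both groups. The genotype label of the first group is SOX10 overexpression and that of the second is WT. The other 12 libraries, which share in the estimate of spread and give the same SOX10 contrast in another background, came from A375 cells in which TADA2B, a subunit of the SAGA histone acetyltransferase complex, was knocked out with guide 1 or guide 2, each with and without SOX10. The labels describe neither the SOX10 construct and its promoter, nor an empty vector in the WT cells, nor whether a line is 1 clone or a pool. An effect of SOX10 and an effect of the vector or of the selection of the line therefore cannot be told apart.

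SOX10 is a transcription factor with an HMG box, a DNA-binding domain that bends DNA at short sites related to ACAAAG and ACAATG. In the neural crest it keeps progenitors multipotent, and later it is needed for both melanocytes and the myelinating glia, Schwann cells and oligodendrocytes. In the melanocyte lineage it acts with MITF, the master regulator of pigment cells, on genes such as DCT, and in glia it acts on genes of the myelin sheath. Most melanomas keep SOX10, and loss of it is associated with an undifferentiated state high in the receptors AXL and EGFR.

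Depth was similar in the 6 libraries, 70009080 to 72564216 counts in control cells and 73045048 to 79435020 with SOX10. Mitochondrial transcripts took 0.732 to 0.996% of control counts and 0.803 to 1.03% of SOX10 counts. The first principal component of the 6 libraries held 57.4% of their variance and separated the groups, with no library apart from its own group. Replicates differed from each other by more than sampling noise, with a chi-square per degree of freedom of 3.96 to 6.86, so none was a copy of another. The labels name no batch or date and do not say whether replicates were separate cultures, so the p-values measure the spread between these libraries, which may be technical. Levels are given in CPM, the count of a gene scaled to a common effective library size, errors are SDs of 3 libraries, and adjusted p-values come from the quasi-likelihood test of edgeR with Benjamini-Hochberg adjustment over all 21060 genes tested.

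SOX10 was already abundant in control cells, and its own level rose by a modest amount. SOX10 (chromosome 22, 37970686 to 37987422, minus strand, in the annotation's hg38 coordinates) had 358, 341 and 364 CPM in the control libraries and 451, 453 and 454 CPM with SOX10. The lowest SOX10 library lay above the highest control library. The rise was from 354.2 ± 12.2 to 452.3 ± 1.57 CPM, a 1.28-fold change (log2 fold change 0.35, SE 0.036, adjusted p = 1.42e-09). The table holds 1 row for SOX10, so RNA from the cells' own gene and from the introduced copy cannot be told apart, and an introduced copy without the gene's untranslated parts or with altered codons would be counted in part. SOX10 overlaps POLR2F, a subunit gene of RNA polymerases on the other strand, which did not pass the test (105 to 102 CPM, adjusted p = 0.439). TADA2B was not targeted in these cells and did not pass the test (32.8, 32.2 and 32.5 against 30.7, 30.7 and 31.7 CPM, adjusted p = 0.289).

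The change was broad and mostly small. Of 21060 genes tested, 7245 (34.4%) passed an adjusted p under 0.05, 3633 of them higher with SOX10 (17.3% of genes tested) and 3612 lower (17.2%). In 6931 of the called genes the 3 libraries of one group all lay above the 3 of the other. A call itself favours such separation, so this count is no separate evidence of change. The median log2 fold change over all genes was -0.01, and the median size among called genes was 0.32. Of the called genes, 68.5% changed by less than 1.5-fold and 18.8% by at least 2-fold. The genes at least 2-fold higher numbered 771 (3.66% of genes tested) and those at least 2-fold lower 589 (2.8%). Among the 2-fold genes, 132 went from under 1 CPM to 1 CPM or more and 87 went the other way. Protein-coding genes made up 3188 of the higher and 3196 of the lower calls. Calls depended on level: 13.3% of genes with a mean under 0.1 CPM were called, against 56.2% of genes at 100 CPM or more, while 2-fold changes fell from 13.3% to 0.901% over the same range.

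**Figure D1:**
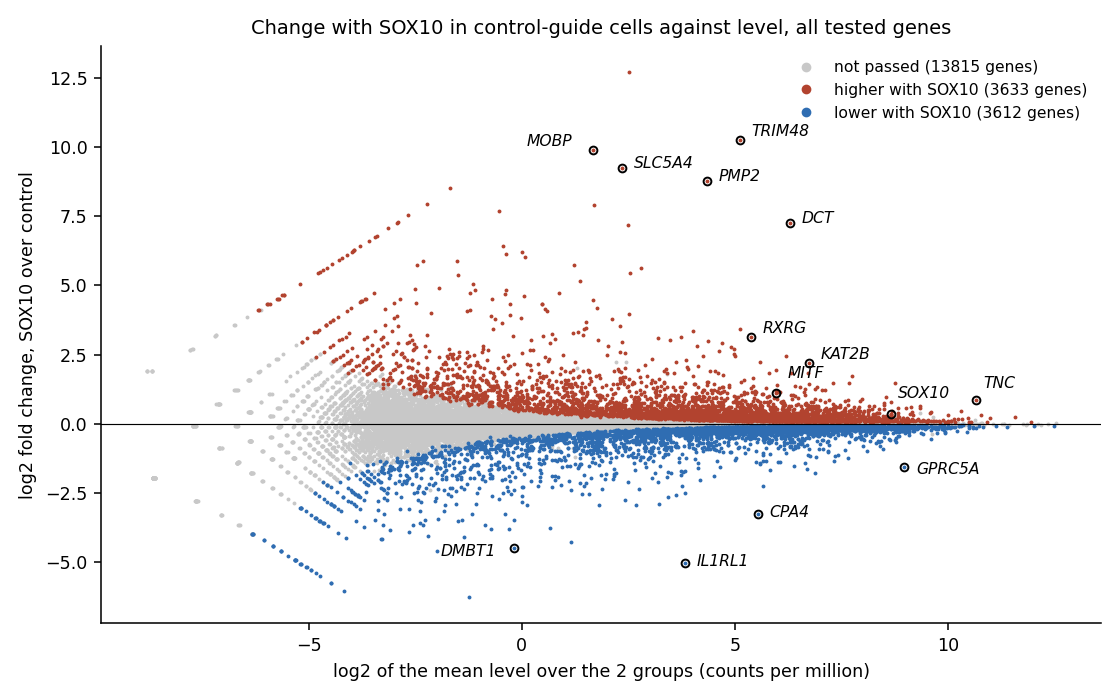
Each point is 1 tested gene, with the log2 of its mean level over both groups (CPM) on the horizontal axis and its log2 fold change with SOX10 on the vertical axis. Red marks the 3633 genes called higher, blue the 3612 called lower and grey the rest. 25 tested genes at 0 in all 6 libraries are not drawn. Changes are largest among low genes and small among abundant ones, and SOX10 itself, at a log2 fold change of 0.35, sits near the zero line.

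The genes with the largest rises were nearly silent in control cells. TRIM48, a member of the TRIM family of RING-finger proteins, had 0.119, 0 and 0.0461 CPM in the control libraries and 70.0, 71.3 and 67.7 CPM with SOX10. It went from near 0 in each control library to a level of moderate abundance (log2 fold change 10.26, SE 0.18, adjusted p = 2.4e-26), and since the TRIM48, TRIM49 and TRIM51 genes are close relatives in sequence, the split of reads among them is uncertain. MOBP, a small basic protein of compact myelin in oligodendrocytes, had 1 read in the 3 control libraries together and 1372 reads with SOX10. Its ratio was 1269, with an exact 95% interval of 227 to 50160 that covers counting error only. SLC5A4, a glucose-sensing member of the sodium-glucose transporter family, had 3 reads against 2204, a ratio of 679.6 (exact 95% interval 232.2 to 3298). CNTN6, a neural adhesion protein of the contactin family, had 0.0298, 0 and 0.0461 against 6.32, 6.35 and 6.72 CPM (log2 fold change 7.92, SE 0.28, adjusted p = 6.78e-25).

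The 250 bases before the RefSeq start site (GRCh38.p14) are shown for the 2 protein-coding genes with the largest fitted rises, TRIM48 (chr11:55261905-55262154, plus strand) and MOBP (chr3:39467430-39467679, plus strand). They are written 5′ to 3′, and capitals mark matches on either strand to the 6-letter motifs ACAAAG or ACAATG.
TRIM48: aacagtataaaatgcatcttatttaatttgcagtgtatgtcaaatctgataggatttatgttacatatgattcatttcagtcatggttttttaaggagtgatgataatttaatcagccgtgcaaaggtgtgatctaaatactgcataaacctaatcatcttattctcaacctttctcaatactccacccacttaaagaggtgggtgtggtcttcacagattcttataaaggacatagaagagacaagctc
MOBP: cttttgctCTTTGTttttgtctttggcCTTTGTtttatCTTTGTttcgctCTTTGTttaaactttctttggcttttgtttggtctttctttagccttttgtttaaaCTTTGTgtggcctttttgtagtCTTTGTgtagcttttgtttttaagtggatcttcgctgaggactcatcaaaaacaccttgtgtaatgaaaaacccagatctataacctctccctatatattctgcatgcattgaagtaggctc
The MOBP stretch held 6 matches, all to ACAAAG on the minus strand (read as CTTTGT above), starting 242, 223, 212, 200, 144 and 122 bases before the start site. The TRIM48 stretch held none, nor did those of SLC5A4 and CNTN6. A match is a description of the letters and not of binding.

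Over the genes with an entry, 20.6% of the 422 protein-coding genes at least 2-fold higher held either motif in these 250 bases, 19.0% of the 290 at least 2-fold lower, and 13.9% of the 6589 that did not pass the test. The share over all 11753 tested protein-coding genes with an entry was 14.1%, and it was 21.4% over all 27305 promoters in RefSeq's set. Both groups of changed genes also had lower median GC content in these windows, 58.8% and 60.6%, than the genes that did not pass, 63.6%, and the part of base composition in these shares was not tested.

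Further genes that rose from low levels span several functions. PMP2, the fatty-acid-binding P2 protein of peripheral myelin, had 0.0596, 0.104 and 0.108 CPM in the control libraries and 38.8, 37.8 and 44.6 CPM with SOX10. DCT, dopachrome tautomerase of the melanin pathway, had 1.04, 0.979 and 1.01 CPM in the control libraries and 159, 154 and 154 CPM with SOX10. The 3 libraries of each DCT group lay close together, and the change was 153-fold (log2 fold change 7.26, SE 0.074, adjusted p = 5.11e-44). SLC18A1, the vesicular monoamine transporter 1, rose from 0.278 ± 0.179 to 13.7 ± 0.557 CPM (log2 fold change 5.63, SE 0.15, adjusted p = 2.9e-26). ALDH1A1, a retinaldehyde dehydrogenase, rose from 0.0304 ± 0.0269 to 2.07 ± 0.221 CPM. MGAM, an intestinal maltase-glucoamylase, rose from 0.254 ± 0.105 to 11.3 ± 0.789 CPM, and MUC7, a salivary mucin, rose from 0.14 ± 0.0609 to 5.04 ± 0.00947 CPM. PRDM7, a histone methyltransferase closely related to PRDM9, had 3 reads in control cells and 315 with SOX10, a ratio of 97.1 (exact 95% interval 32.9 to 473.5). TRIM49D1 rose from 0.0203 ± 0.0235 to 1.52 ± 0.224 CPM, with the same uncertainty over copies as TRIM48. Genes of moderate level that rose many-fold, chosen after their values were seen, include ACAN, the aggrecan core protein (5.96 to 64 CPM), SPON2, a secreted matrix protein (6.01 to 46.1 CPM), and TRAF1, a signalling adaptor of TNF receptors (4.64 to 36.9 CPM).

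The steepest falls were also from modest levels. IL1RL1, the interleukin-33 receptor, had 27.6, 29 and 26.3 CPM in the control libraries and 0.723, 0.953 and 0.882 CPM with SOX10. No SOX10 library reached the range of the control libraries, which the rule for naming the steepest falls required (log2 fold change -5.02, SE 0.094, adjusted p = 1.13e-34). The gene overlaps IL18R1. CPA4, a secreted carboxypeptidase, had 88.4, 86.7 and 76.9 CPM in the control libraries and 8.45, 8.15 and 10.1 CPM with SOX10 (log2 fold change -3.24, SE 0.055, adjusted p = 7.76e-25). DMBT1, a secreted scavenger-receptor protein, fell from 1.7 ± 0.257 to 0.0738 ± 0.0129 CPM, ABTB3 fell from 4.21 ± 0.279 to 0.217 ± 0.05 CPM, and NTSR1, the neurotensin receptor, fell from 2.97 ± 0.248 to 0.218 ± 0.0481 CPM. Others of the steepest falls were PLXDC2, INSYN2B, RGS4, UBE2QL1 and MME, each from 1.01 to 1.63 CPM to under 0.15 CPM. RGS4 is a brake on G protein signalling and MME is the membrane peptidase neprilysin. LYPD3, a GPI-anchored adhesion protein, fell from 6.24 ± 0.134 to 0.803 ± 0.0981 CPM, and STC1, the secreted hormone-like glycoprotein stanniocalcin 1, fell from 11.3 ± 0.978 to 1.47 ± 0.0412 CPM. ANPEP, the surface aminopeptidase CD13, was chosen after its values were seen and fell from 183 ± 6.87 to 53.8 ± 0.403 CPM (log2 fold change -1.76, SE 0.038, adjusted p = 5.56e-32).

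Matrix proteins led the gains in CPM among abundant genes. TNC, the matrix protein tenascin C, had 1160.3, 1157 and 1113 CPM in the control libraries and 2127, 2068 and 2048 CPM with SOX10 (log2 fold change 0.86, SE 0.027, adjusted p = 6.39e-27). HAPLN1, a link protein that ties hyaluronan to proteoglycans, had 233, 224 and 229 CPM in the control libraries and 625, 628 and 668 CPM with SOX10 (log2 fold change 1.48, SE 0.032, adjusted p = 8.77e-33). In both genes all SOX10 libraries lay above all control libraries, which the rule for naming genes by gain required. THBS1, thrombospondin 1, rose from 2797 ± 65.2 to 3286 ± 259.7 CPM, and SPARC, a collagen-binding matrix protein, rose from 1558 ± 72.5 to 1949 ± 20.4 CPM. CD74, the invariant chain of MHC class II, rose from 1066 ± 18.2 to 1459 ± 17.8 CPM, and LDHA, lactate dehydrogenase A, rose from 1889 ± 15.6 to 2207 ± 22.6 CPM. The losses in CPM were led by surface and chaperone genes. GPRC5A, an orphan receptor induced by retinoic acid, had 743, 749 and 763 CPM in the control libraries and 258, 253 and 262 CPM with SOX10 (log2 fold change -1.54, SE 0.026, adjusted p = 2.47e-36). SLC7A5, the large neutral amino acid transporter LAT1, fell from 933 ± 8.61 to 633 ± 23.6 CPM, and CD44, the hyaluronan receptor, fell from 1544 ± 16 to 1249 ± 15.7 CPM. DCBLD2, a neuropilin-like membrane protein, fell from 1091 ± 2.23 to 858 ± 16.3 CPM. The cytosolic chaperone genes HSP90AA1 and HSP90AB1 fell by 0.10 and 0.08 on the log2 scale, and the latter did not pass the test when no filter on low counts was applied.

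**Figure D2:**
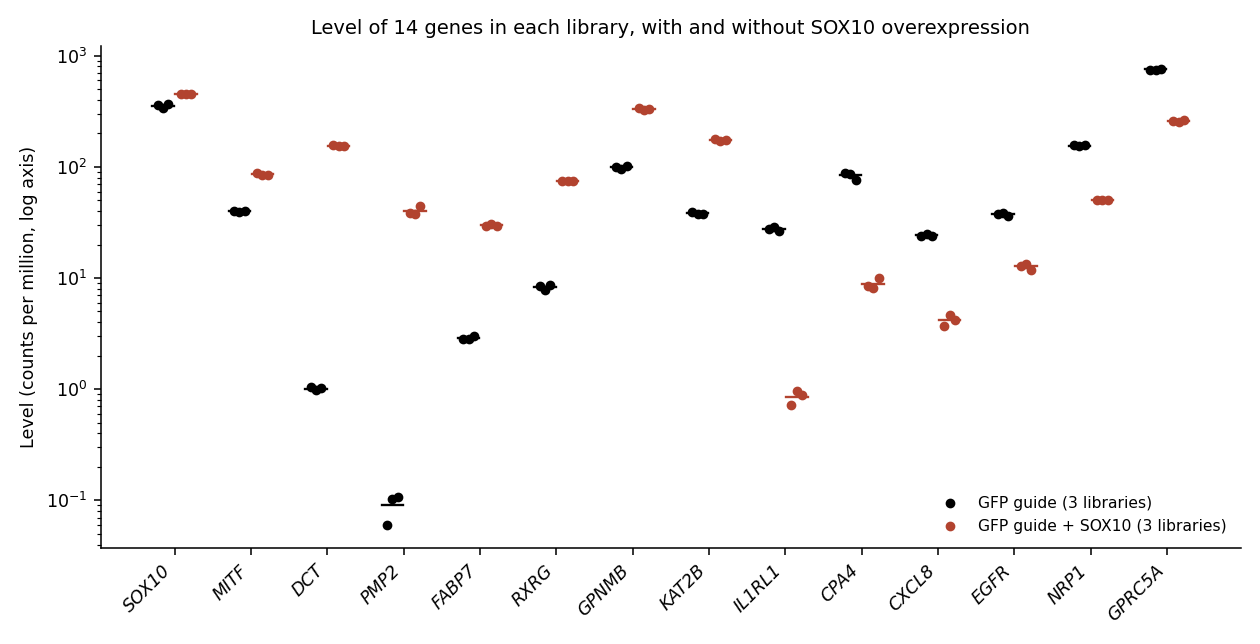
Level of 14 genes (CPM, log axis) in each of the 3 control-guide libraries (black) and the 3 with SOX10 (red), with a line at each mean. The groups do not overlap in any of the 14 genes: 8 are higher with SOX10, from SOX10 itself (354.2 to 452.3 CPM) to PMP2, and 6 are lower. For genes named by rank of change, such as IL1RL1 and GPRC5A, groups apart were a condition of the choice.

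Some noncoding genes and pseudogenes moved as well. LHFPL3-AS1, an antisense RNA, had 0 reads in control cells and 2462 with SOX10, which is at least 759-fold higher against a floor of 3 reads over the control group. FRG2DP, a pseudogene, rose from 0.0752 ± 0.0151 to 11.2 ± 0.213 CPM, and DRAIC, a long noncoding RNA, rose from 0.0251 ± 0.0228 to 1.97 ± 0.337 CPM. The unnamed gene ENSG00000260611 had 1 read against 298, a ratio of 275.6 (exact 95% interval 49.1 to 10920). Of the 1499 lincRNAs tested, 164 were higher and 127 lower, and of the 1378 antisense genes 84 were higher and 90 lower. Both classes were called less often than all genes tested, of which 17.3% were higher and 17.2% lower. Calls depended on level, and the classes were not matched for it. At 2-fold or more, 89 of the 1499 lincRNAs were higher and 70 lower, larger shares than the 3.66% and 2.8% of all genes tested. Of the 1378 antisense genes, 42 and 29 were. The strand setting of the counting is not given in the sources used here, so reads of an antisense gene and of its partner may be mixed.

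Myelin genes were mostly higher. Of 15 tested genes for myelin proteins and myelin lipid synthesis, 11 rose, 1 fell and 3 did not pass, with a median log2 fold change of 0.62 against -0.01 over all genes. Over all genes tested 17.3% were higher and 17.2% lower, the shares beside which this and later list counts stand. Called shares rose with level, to 47.1% at 10 to 100 CPM and 56.2% at 100 CPM or more, and no list was tested against them. PMP22, a membrane protein of peripheral myelin, had 245, 253 and 261 CPM in the control libraries and 487, 458 and 541 CPM with SOX10 (log2 fold change 0.97, SE 0.037, adjusted p = 5.57e-20), and UGT8, which makes the myelin lipid galactosylceramide, had 43.4, 47.1 and 43.3 against 82.7, 82.5 and 81.7 CPM. The SOX10 libraries lay above the control libraries for both. The enzyme gene CNP rose from 199 to 279 CPM. The gene that fell was LPAR1, a receptor for lysophosphatidic acid (5.32 to 4.38 CPM), and it lost this call without control replicate 1, control replicate 3 or SOX10 replicate 1 and with no filter on low counts. The other 7 listed genes, among them MBP and MAG, were too low to be tested. Of 10 markers of neurons and oligodendrocytes tested, 4 rose and 1 fell, and their summed level went from 16.2 to 17.8 CPM in control to 23.2 to 25.9 CPM with SOX10. The most abundant, the synaptic vesicle protein gene SYT1, rose from 9.76 to 15.5 CPM, and GAD1, which makes GABA, rose from 1.51 to 3.19 CPM. OLIG2 (2.74 to 3.53 CPM) lost its call without control replicate 1 or 3 or SOX10 replicate 1 or 2, and SNAP25, the one that fell (1.5 to 0.996 CPM), without control replicate 2 or SOX10 replicate 2 or 3.

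Genes of the Schwann cell precursor and neural crest lineage also leaned upward, with 19 of 30 tested higher, 6 lower and 5 not passing, and a median of 0.50. RXRG, a retinoid receptor of glial cells and neural crest-like melanoma cells, had 8.56, 7.87 and 8.68 CPM in the control libraries and 74.4, 74.3 and 74.2 CPM with SOX10 (log2 fold change 3.15, SE 0.062, adjusted p = 4.89e-34). FABP7, the brain fatty-acid-binding protein of radial glia and Schwann precursors, had 2.82, 2.85 and 3 CPM in the control libraries and 29.7, 30.5 and 29.1 CPM with SOX10 (log2 fold change 3.36, SE 0.076, adjusted p = 5.91e-32). Both were nearly identical within each group. SOX6, a SOXD factor that cooperates with other SOX proteins, had 4.38, 3.63 and 5.07 CPM in the control libraries and 27.9, 29.3 and 33.5 CPM with SOX10 (log2 fold change 2.79, SE 0.095, adjusted p = 9.24e-20) and overlaps C11orf58. Smaller rises were found for S100B, a glial calcium-binding protein (14.2 to 35 CPM), FOXD3, an early neural crest factor (8.02 to 16 CPM), the glial cadherin CDH19 (86.4 to 125 CPM), the neuregulin receptor ERBB3 (354 to 414 CPM), the endothelin receptor EDNRB (26.3 to 38.4 CPM) and ITGA4, integrin alpha 4 (101 to 140.4 CPM). The 6 that fell include NGFR, the low-affinity nerve growth factor receptor (26.3 to 20.7 CPM), PAX3 (16.5 to 14.6 CPM) and L1CAM, a neural adhesion molecule. L1CAM had 123, 126 and 123 CPM in the control libraries and 45.7, 42.3 and 41.5 CPM with SOX10 (log2 fold change -1.52, SE 0.04, adjusted p = 8.78e-28).

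SOX family members did not move as a block. Of 13 tested, SOX6, SOX10, SOX4 and SOX13 rose, SOX9, SOX18 and SOX11 fell, and 6 did not pass. SOX13 lost its call without control replicate 1 and SOX18 without SOX10 replicate 1. SOX9, the SOXE relative of SOX10 in chondrocytes and stem cells, had 2.31, 2.12 and 2.08 CPM in the control libraries and 0.559, 0.349 and 0.456 CPM with SOX10 (log2 fold change -2.25, SE 0.16, adjusted p = 2.18e-15). SOX9 overlaps an antisense RNA, SOX9-AS1.

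In the pigment program, DCT and MITF rose while the other melanocyte antigens stayed low. MITF had 40.0, 39.1 and 40.1 CPM in the control libraries and 87.5, 84.6 and 84.3 CPM with SOX10 (log2 fold change 1.11, SE 0.038, adjusted p = 9.88e-26). The groups were apart by about the size of the control level. Of 19 tested genes of melanin synthesis and the melanosome, 8 rose, 1 fell and 10 did not pass, with a median of 0.37 (0.24 without control replicate 3 or SOX10 replicate 2). GPNMB, a melanosomal glycoprotein, had 99.6, 96.4 and 101 CPM in the control libraries and 338, 324 and 329 CPM with SOX10 (log2 fold change 1.74, SE 0.028, adjusted p = 4.87e-37), and ATP7A, the copper pump that loads tyrosinase, had 20.8, 20.9 and 21 against 42.1, 41.4 and 42.4 CPM. ATP7A overlaps PGK1, which also rose. RAB27A, a melanosome transport GTPase, rose from 11.4 to 15.5 CPM, while MLPH, melanophilin, which links RAB27A to myosin, fell from 4.52 to 0.765 CPM (log2 fold change -2.56, SE 0.17, adjusted p = 7.79e-15). PMEL (0.412 to 0.451 CPM), MLANA (1.16 to 1.06 CPM), TYRP1 (0.0955 to 0.153 CPM) and OCA2 (1.21 to 1.56 CPM) did not pass, and tyrosinase (TYR) was too low to be tested. Of 14 melanoma markers tested, 7 rose and 3 fell, the latter being S100A4, CSPG4 and PAX3, and the most abundant, SERPINE2, did not pass. The 7 include MITF and the overexpressed gene SOX10 itself, whose rise is no marker response.

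Among genes that mark undifferentiated, AXL-high melanoma cells, 17 of 30 tested fell and 8 rose, with a median of -0.29. Their summed level went the other way, with 7692 to 7824 CPM in control and 8683 to 8809 CPM with SOX10. EGFR had 37.7, 38.8 and 35.8 CPM in the control libraries and 12.8, 13.5 and 11.9 CPM with SOX10 (log2 fold change -1.55, SE 0.047, adjusted p = 1.09e-27), and AXL had 521, 541 and 535 CPM in the control libraries and 398, 379 and 388 CPM with SOX10 (log2 fold change -0.45, SE 0.028, adjusted p = 2.01e-17). No SOX10 library reached the control range for either receptor. CDH13, an anchored cadherin, had 193, 196 and 194 against 94.9, 95.6 and 96.9 CPM, and F2RL1, the protease-activated receptor 2, had 8.97, 9.99 and 8.58 against 1.68, 2.58 and 2.13 CPM. FN1, fibronectin, fell from 352 ± 12.5 to 228 ± 3.45 CPM. The 8 that rose include TNC, SPARC, the TGF-beta-induced matrix protein TGFBI (194 to 253 CPM), the muscle ankyrin protein ANKRD1 (12.5 to 23.2 CPM) and CDH2, N-cadherin (192 to 228 CPM). The transcription factors of epithelial-mesenchymal transition were divided, with 5 of 10 higher and 4 lower. SNAI2 (1.45, 1.19 and 1.17 against 3.18, 3.76 and 2.54 CPM), TWIST1 (10.5, 11.7 and 11.3 against 19.3, 18.9 and 19.5 CPM) and ZEB2 (54.9, 55 and 56.5 against 85.1, 81.6 and 89.9 CPM) rose, while FOXC2 (21.5, 20.4 and 19.3 against 6.32, 6.44 and 6.06 CPM) and TWIST2 (3.61, 3.66 and 4.2 against 1.54, 1.24 and 1.46 CPM) fell.

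Receptor tyrosine kinases changed in both directions, 8 higher and 13 lower of 29 tested (median -0.11). MET, the hepatocyte growth factor receptor, had 255, 258 and 252 CPM in the control libraries and 133, 131 and 132 CPM with SOX10 (log2 fold change -0.95, SE 0.027, adjusted p = 1.03e-28), and the MET groups were apart by nearly 2-fold. FGFR1 fell from 29 to 16.2 CPM and EPHA2 from 245 to 181 CPM. KDR, VEGF receptor 2, had 2.7, 3.65 and 3.43 against 10.5, 10.2 and 10.8 CPM, and FLT1, VEGF receptor 1, rose from 54.4 to 111.7 CPM. EPHA3, an ephrin receptor, rose from 155 ± 4.88 to 231 ± 2.74 CPM. Downstream, the output and feedback genes of the MAPK pathway were 8 higher and 13 lower of 27 (median -0.12). DUSP4, an ERK phosphatase, had 433, 425 and 438 CPM in the control libraries and 258, 246 and 246 CPM with SOX10 (log2 fold change -0.79, SE 0.029, adjusted p = 7.01e-25). IL11 (26, 27 and 26.6 against 8.66, 9.44 and 8.32 CPM) and LIF (26.7, 26.5 and 27.8 against 14.8, 13.7 and 14.1 CPM), cytokines of the IL-6 family, fell, as did CCND1, cyclin D1 (from 1082 ± 14.7 to 878 ± 23.6 CPM). TRIB2, a pseudokinase, rose from 99.4 ± 1.64 to 143 ± 2.45 CPM, and the ERK phosphatase DUSP6 rose from 166 to 202 CPM, so the feedback genes did not share a direction. Of 19 AP-1 and immediate early genes, 5 rose, among them FOS (3.99 to 8.89 CPM) and JUN (18.2 to 27.9 CPM), and 7 fell, among them EGR1 (18.7 to 12.8 CPM), IER2 (48.6 to 33.1 CPM) and FOSL1 (355 to 286 CPM).

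Inflammatory cytokine genes were lower. Of 25 genes of the NF-kB pathway and its cytokine targets, 13 fell and 3 rose, with a median of -0.51, and 9 fell by at least 2-fold. With only genes at a mean of 1 CPM or more, 9 of 20 fell and the median was -0.19, so the size of the median rests in part on genes below that level. CXCL8, a neutrophil chemokine, had 23.7, 24.7 and 24.1 CPM in the control libraries and 3.72, 4.69 and 4.22 CPM with SOX10 (log2 fold change -2.52, SE 0.11, adjusted p = 8.1e-13). CXCL1, its relative, had 35.7, 36.4 and 35.7 CPM in the control libraries and 9.09, 10.8 and 9.59 CPM with SOX10 (log2 fold change -1.87, SE 0.069, adjusted p = 1.13e-24). The 2 chemokines were lower in each SOX10 library than in any control library. Others that fell include IL1B, IL1A, CSF2, CCL2, CXCL2, CXCL3 and TNFAIP2 (18.9 to 11.4 CPM), while IL6 had 0 reads in all SOX10 libraries from a control mean of only 0.0893 CPM, and lost its call without control replicate 2. The NF-kB subunit genes themselves, NFKB1 (124 to 127 CPM), RELA (73.3 to 72 CPM) and NFKB2 (45.6 to 45 CPM), did not pass, and the 3 genes that rose were CSF1, ICAM1 and the feedback inhibitor TNFAIP3.

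Genes for antigen presentation rose. Of 17 MHC class II genes and regulators, 15 were higher, with a median of 0.61. CIITA, the class II transactivator, had 109.5, 100.2 and 107 CPM in the control libraries and 191, 187 and 198 CPM with SOX10 (log2 fold change 0.86, SE 0.037, adjusted p = 2.05e-22) and overlaps DEXI. HLA-DRA, the chain shared by the DR molecules, had 502, 517 and 555 CPM in the control libraries and 763, 787 and 789 CPM with SOX10 (log2 fold change 0.57, SE 0.03, adjusted p = 2.05e-19). HLA-DPA1 rose from 296 ± 8.06 to 434 ± 6.62 CPM and HLA-DOA, a modulator of peptide loading, rose from 13.8 ± 1.03 to 32 ± 1.22 CPM. RFXAP, a subunit of the promoter-binding RFX complex, fell from 8.33 to 6.12 CPM. In class I, 12 of 20 rose and none fell (median 0.16). HLA-B (95.8 to 141 CPM), HLA-E (113 to 168 CPM) and HLA-C (58 to 82 CPM) rose, although HLA-B and HLA-C overlap each other and are near-identical in sequence, and the peptide transporter genes TAP1 and TAP2 and the class I activator NLRC5 did not pass. Leukocyte markers were near 0 apart from lysozyme (LYZ, 8.37 to 5.49 CPM), and 6 of the 12 listed were too low to be tested. The summed level of the rest was 8.47 to 9.55 CPM in control and 5.37 to 6.25 CPM with SOX10, nearly all of it LYZ. Interferon-stimulated genes were less uniform, with 13 of 40 higher, 4 lower and 23 not passing (median 0.13, but 0.07 without control replicate 2 or SOX10 replicate 2). PARP9 (18 to 31 CPM) and HERC6 (6.31 to 10.1 CPM) rose, and IFI44 (22.9 to 11.2 CPM) and OASL (0.285 to 0.0323 CPM) fell.

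**Figure D3:**
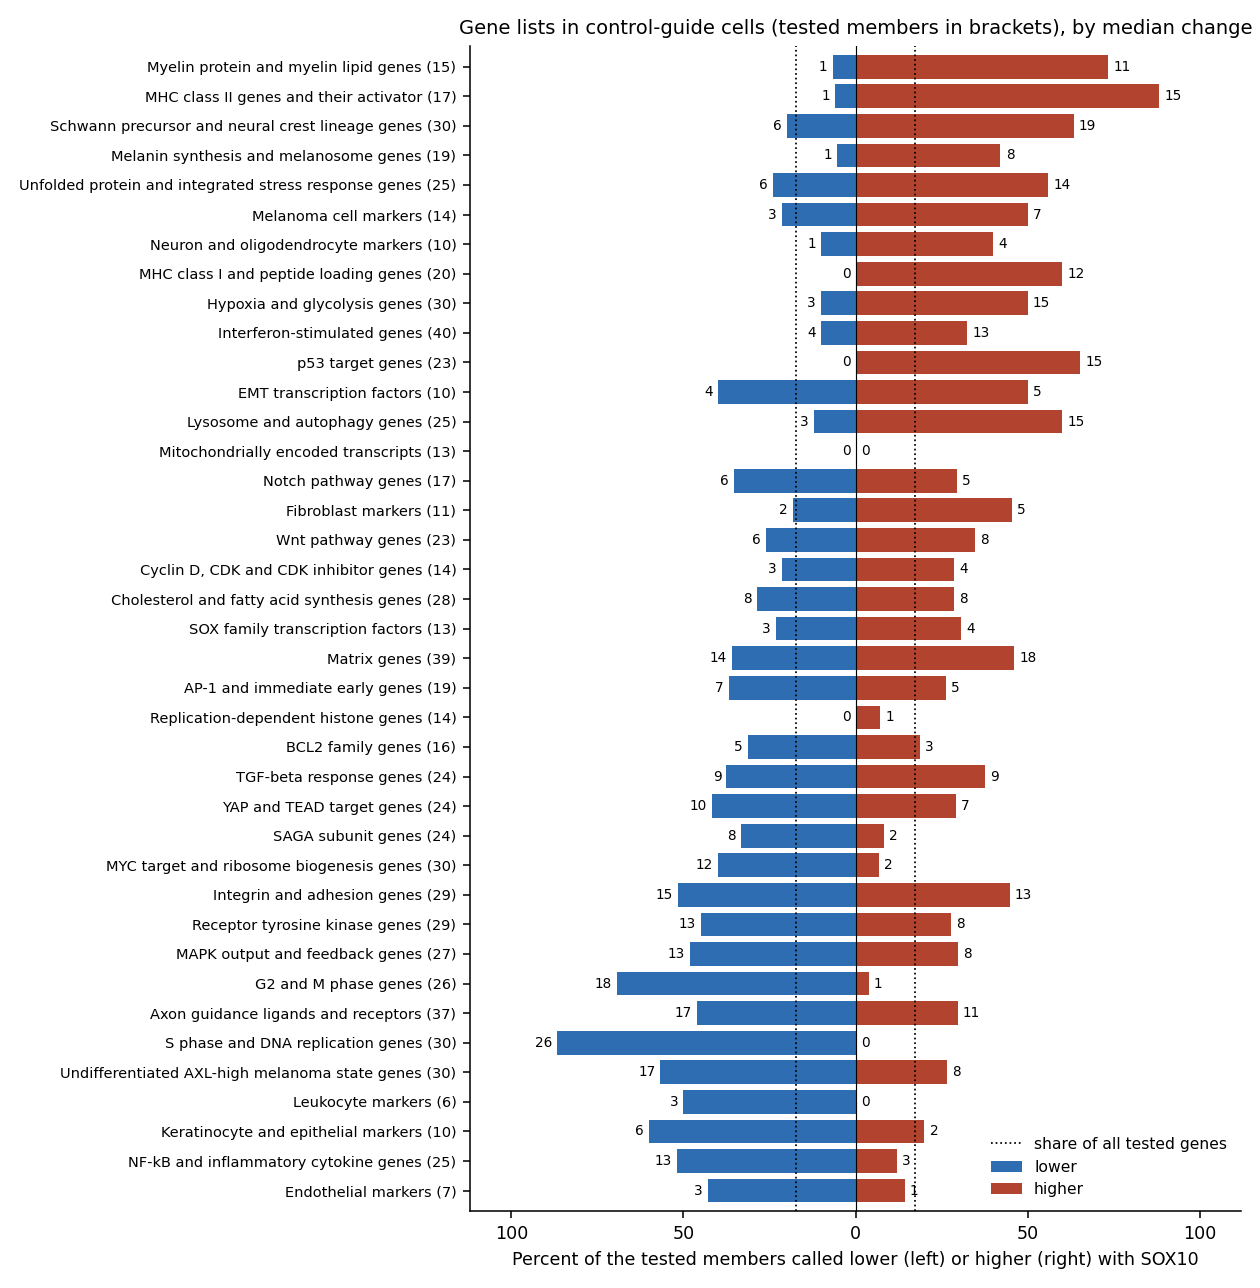
For each of 39 gene lists, the bar to the right gives the percent of tested members called higher with SOX10 in control-guide cells and the bar to the left the percent called lower, with counts at the bar ends, tested members in brackets and lists in order of median change. Dotted lines mark the shares over all tested genes, 17.3% higher and 17.2% lower. These lines are not matched for level: 47.1% of genes at 10 to 100 CPM and 56.2% at 100 CPM or more were called in either direction. MHC class II genes (15 of 17 higher) and S phase genes (26 of 30 lower) reach farthest.

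Replication genes fell together and by little. Of 30 genes of S phase and DNA replication, 26 were lower and none higher, with a median of -0.20. UHRF1, which guides maintenance DNA methylation, had 275, 263 and 272 CPM in the control libraries and 188, 181 and 179.5 CPM with SOX10 (log2 fold change -0.56, SE 0.033, adjusted p = 1.08e-17). MCM6, a subunit of the replicative helicase, had 153, 151 and 159 against 116, 115 and 121 CPM and CCNE2, cyclin E2, had 35.1, 36.8 and 37.1 against 24.4, 25.3 and 27 CPM. In these genes all SOX10 libraries lay below all control libraries, at changes of 1.31-fold to 1.48-fold. MCM4, another subunit, fell from 597 ± 2.62 to 492 ± 8.18 CPM, and PCNA, the polymerase clamp, fell from 402 to 325 CPM. Of 26 genes of G2 and M phase, 18 fell and 1, CDK1, rose (289 to 319.8 CPM), with a median of -0.14. The 18 became 13 without control replicate 2 and 14 without SOX10 replicate 1 or with no filter. CCNB1, cyclin B1, fell from 636 ± 13.3 to 533 ± 7.19 CPM. The CDK inhibitors CDKN1A, known as p21 (105, 103 and 105 against 126, 123 and 123 CPM), and CDKN1B, known as p27 (48.6, 49.6 and 53.5 against 64.2, 63.9 and 63 CPM), rose, and CDK2 fell from 152 ± 5.42 to 128 ± 1.75 CPM and overlaps PMEL. CDKN1C, known as p57, fell from 6.79 ± 0.181 to 2.19 ± 0.253 CPM.

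Listed targets of p53 rose slightly. Of 23 tested, 15 were higher and none lower, with a median of 0.13, and the count was 10 when control replicate 1 or control replicate 2 was left out. Without SOX10 replicate 1, 11 were higher and 1 lower. ZMAT3, an RNA-binding p53 target, had 60.0, 62.7 and 61.7 CPM in the control libraries and 94, 96.8 and 101 CPM with SOX10 (log2 fold change 0.66, SE 0.036, adjusted p = 5.48e-19), and TP53I3 had 16.2, 16.9 and 18 against 23.5, 24.1 and 23.1 CPM. In the class I, S phase and p53 lists, 0 genes went the other way at an unadjusted p under 0.05 in the edgeR fit over all libraries, and DESeq2 and limma voom called 0. In the BCL2 family, 3 of 16 rose and 5 fell, beside 17.3% and 17.2% of all genes tested. The pro-apoptotic gene PMAIP1 fell from 51.1 ± 2.26 to 30.6 ± 0.952 CPM (log2 fold change -0.74, SE 0.044, adjusted p = 8.07e-18). PMAIP1 is also a known p53 target but was not in the p53 list, so the absence of lower calls holds for the listed genes only. The pro-apoptotic BMF rose from 0.64 ± 0.101 to 1.18 ± 0.241 CPM, and the anti-apoptotic BCL2A1, a known MITF target, rose from 1.51 ± 0.259 to 2.39 ± 0.0492 CPM. The 5 lower calls became 2 without SOX10 replicate 1, 3 without SOX10 replicate 2 and 1 with no filter. The 3 higher calls became 2 without control replicate 1, control replicate 2 or SOX10 replicate 1, where BBC3 (adjusted p = 0.0106) no longer passed. Of 30 MYC targets and ribosome biogenesis genes, 12 fell, 2 rose and 16 did not pass (median -0.07), with 8 lower without control replicate 2 or 3 and 6 when no filter on low counts was applied. ODC1, ornithine decarboxylase, fell from 94.6 ± 2.56 to 63.5 ± 0.673 CPM with the largest change of those called.

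Metabolic and stress genes moved by small amounts. Hypoxia and glycolysis genes were 15 higher and 3 lower of 30 (median 0.15), led by BNIP3, a mitophagy receptor (90.1, 92.2 and 92.2 against 138, 141 and 143 CPM), P4HA1, a collagen prolyl hydroxylase (91, 89.2 and 93.3 against 137, 129 and 134 CPM), and HK2, hexokinase 2 (208, 207 and 202 against 296, 285 and 276 CPM). CA9, carbonic anhydrase 9, fell from 1.18 to 0.507 CPM, and 5 rather than 3 were lower with upper quartile scaling. In the unfolded protein and integrated stress responses, 14 of 25 rose and 6 fell (median 0.22, but 0.13 without SOX10 replicate 2). The chaperone HSP90B1 (1311 to 1526 CPM) and the transcription factor CREB3L2 (125 to 178 CPM) rose. ATF4 (284 to 248 CPM) and its amino acid transport targets SLC3A2 (305 to 232 CPM) and SLC7A11 (100.2 to 63.8 CPM) fell, while PSAT1, of serine synthesis, rose (271 to 334 CPM). Lysosome and autophagy genes were 15 higher and 3 lower of 25 (median 0.12), among the higher LAMP2 (162 to 222 CPM) and the cathepsin gene CTSK (10.8 to 21.2 CPM). Of 28 cholesterol and fatty acid genes, 8 rose and 8 fell, such as SCD (327 to 270.1 CPM), beside 17.3% and 17.2% of all genes tested. The 8 lower calls became 4 without control replicate 2 or SOX10 replicate 2, 5 without control replicate 3 and 3 with no filter.

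Surface guidance and adhesion genes showed large shifts in both directions. Of 37 axon guidance genes, 11 rose and 17 fell (median -0.18). NRP1, a co-receptor for semaphorin 3A and VEGF, had 157, 153 and 157 CPM in the control libraries and 50.3, 50.2 and 49.8 CPM with SOX10 (log2 fold change -1.63, SE 0.032, adjusted p = 5.37e-34), and its ligand SEMA3A had 70.9, 70.6 and 65.6 against 31.4, 30.6 and 32.7 CPM. The relative NRP2 had 132, 131 and 131 CPM in the control libraries and 210.3, 202 and 195 CPM with SOX10, so the 2 neuropilins moved in opposite directions. SEMA6A rose from 7.74 ± 0.51 to 19.3 ± 0.653 CPM. Of 29 integrin and adhesion genes, 13 rose and 15 fell. CADM1, an immunoglobulin-like adhesion protein, had 106, 109 and 111.7 CPM in the control libraries and 299, 299.6 and 308 CPM with SOX10 (log2 fold change 1.48, SE 0.028, adjusted p = 2.61e-34), and ITGAV, integrin alpha V, rose from 143 to 258 CPM. The collagen receptor ITGA1 (144, 143 and 145 against 65.1, 65.4 and 65.4 CPM) and the laminin receptor ITGA3 (228, 225 and 228 against 99.6, 101 and 100 CPM) fell. Matrix genes were 18 higher and 14 lower of 39 (median 0.00). The basement membrane collagens COL4A1 (277 to 352 CPM) and COL4A2 (489 to 659.6 CPM) and ITIH5, a hyaluronan-binding protein (9.39 to 53.5 CPM), rose, and the collagen VI genes COL6A1 (118 to 70.5 CPM), COL6A2 (61.6 to 48 CPM) and COL6A3 (21 to 5.83 CPM) fell with the collagenase MMP1 (4.2 to 0.95 CPM).

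Other signalling lists were split, and their counts stand beside 17.3% higher and 17.2% lower over all genes tested. Among genes at 10 to 100 CPM 47.1% were called in either direction, and whether these lists differ from such shares was not tested. YAP and TEAD targets were 7 higher and 10 lower of 24 (median -0.04), with CCN2 up (77.7 to 125 CPM) and CRIM1 (417 to 269 CPM) and MYOF (526 to 387 CPM) down. TGF-beta response genes were 9 higher and 9 lower of 24 (median -0.04), with LTBP1, which stores latent TGF-beta, up (4.35 to 12.1 CPM) and ID1 down (40.1 to 24.8 CPM). Notch pathway genes were 5 higher and 6 lower of 17 (median 0.06), the targets HEY1 (5.43 to 12 CPM) and HEY2 (0.706 to 2.59 CPM) rising and the modifier LFNG falling (3.61 to 1.53 CPM). Wnt genes were 8 higher and 6 lower of 23 (median 0.05), and the 8 became 5 without SOX10 replicate 3. SFRP1, a secreted Wnt antagonist, had 461, 456 and 478 CPM in the control libraries and 245, 241 and 247 CPM with SOX10 (log2 fold change -0.93, SE 0.027, adjusted p = 3.32e-28), the largest loss in CPM of that list. Wnt readouts AXIN2 (0.31 to 0.392 CPM) and TCF7 (2.2 to 2.54 CPM) did not pass.

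Within SAGA, 1 acetyltransferase gene stood apart. KAT2B, also called PCAF, had 39.5, 37.6 and 37.8 CPM in the control libraries and 177, 171 and 176 CPM with SOX10 (log2 fold change 2.19, SE 0.038, adjusted p = 1.25e-35). The groups were 4.56-fold apart, while its paralog KAT2A did not pass (46.3 to 45.2 CPM). Of the 24 SAGA genes tested, TADA3 was the other called higher (52.3 to 56 CPM), a call lost when any 1 of the 6 libraries was left out. Of the rest, 8 fell and 14 did not pass, the steepest fall being that of the deubiquitinase module gene ATXN7L2 (log2 fold change -0.32).

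Markers of other cell types were low for the most part, and their part in the results was not tested. None of 13 mitochondrially encoded transcripts passed the test, and 1, MT-ND3, was higher at an unadjusted p under 0.05; DESeq2 and limma voom called none, and edgeR called MT-ND3 higher without robust estimation and with a replicate block over the 6 libraries. Of 14 replication-dependent histone genes, 1 passed (H2BC12, 7.81 to 9.42 CPM), and 2 were higher without control replicate 2, control replicate 3 or SOX10 replicate 1. Of 11 fibroblast markers 5 rose and 2 fell, and their summed level went from 30.3 to 30.9 CPM in control to 22.9 to 24.4 CPM with SOX10, COL6A3 alone losing more than the sum (21 to 5.83 CPM), with COL3A1 under 0.05 CPM. In bulk RNA, fewer cells of a type and less RNA per cell cannot be told apart. Of 10 keratinocyte and epithelial markers 6 fell and 2 rose: ESRP1, an epithelial splicing regulator, rose from 0.156 ± 0.0261 to 2.76 ± 0.253 CPM, KRT18, the most abundant, fell from 159 to 128 CPM, and CDH1, TP63 and KRT1 were too low to be tested. Of 7 endothelial markers, KDR rose and 3 fell, and CDH5 and PECAM1 were under 0.35 CPM in both groups; PECAM1 lost its call without control replicate 2 or 3 or SOX10 replicate 3.

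The same SOX10 contrast in TADA2B knockout cells gave many of the same calls, and it shares no library with the one in control cells. In knockout cells, taken as the mean over both guides, 5920 genes were higher with SOX10 (28.1%) and 5922 lower (28.1%). Of the 3633 genes higher in control cells, 2519 were also higher in knockout cells (69.3% of the control list and 42.6% of the knockout list) and 388 were lower. Of the 3612 lower genes, 2129 were also lower (58.9% and 36.0% of the 2 lists) and 541 were higher. At 2-fold or more the lists shared 525 higher genes (68.1% and 35.3%) and 346 lower genes (58.7% and 33.5%). The difference between backgrounds did not pass the test, which does not show equality, for EGFR (-1.55 in control cells, -1.65 with guide 1 and -1.47 with guide 2), NRP1 (-1.63, -1.66 with guide 1 and -1.61 with guide 2), CPA4 (-3.24, -3.24 with guide 1 and -3.12 with guide 2) and FOXC2 (-1.70, -1.70 with guide 1 and -1.45 with guide 2). Its estimates were 0.00, 0.00, -0.06 and -0.12 on the log2 scale. DCT rose in every background (7.26, 8.57 with guide 1 and 6.39 with guide 2), although with SOX10 it reached 156 CPM in control cells and only 22.8 and 6.59 CPM in the 2 knockout lines.

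The size of the SOX10 effect differed between control and knockout cells for 7005 of 21060 genes (33.3%). SOX10 itself is the first such gene: its log2 fold change was 0.35 in control cells and 1.80 with guide 1 and 2.50 with guide 2 (difference -1.80, SE 0.046, adjusted p = 7.34e-25); it started lower there, at 83.6 and 43.4 CPM against 354.2 CPM. The groups therefore differ in how much SOX10 changed, and this difference in dose and the knockout itself cannot be told apart as the source of any difference below. For several neural crest genes the effect was smaller in control cells, which started higher. RXRG had 8.37 CPM without and 74.3 CPM with SOX10 in control cells, and went from 0.309 to 19.8 and from 0.102 to 12.7 CPM in the 2 knockout lines (difference -3.27, SE 0.14, adjusted p = 1.44e-22). CDH19 (0.53 against 3.26 with guide 1 and 4.39 with guide 2), ERBB3 (0.23 against 2.36 with guide 1 and 2.96 with guide 2) and HAPLN1 (1.48 against 4.22 with guide 1 and 4.71 with guide 2) followed the same order. CIITA rose less in control cells as well (0.86 against 2.04 with guide 1 and 2.22 with guide 2). KAT2B and GPNMB rose more in control cells (differences 0.95 and 0.66, adjusted p = 3.93e-20 and 6.84e-20).

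**Figure D4:**
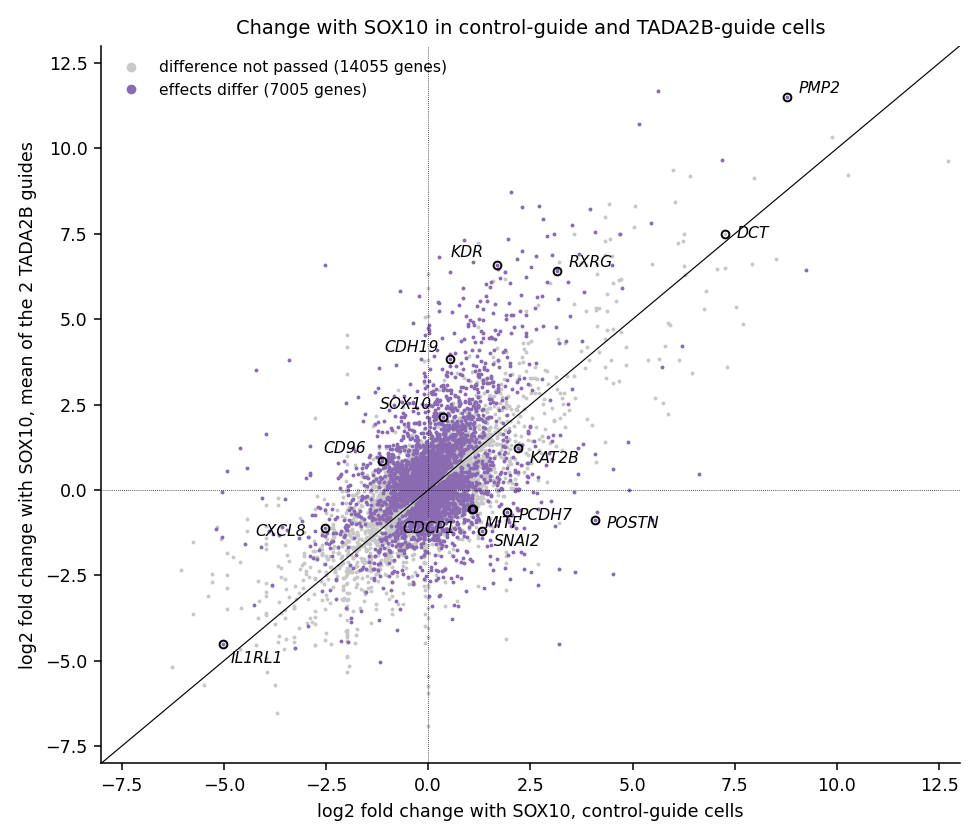
Each point is 1 tested gene, with its log2 fold change with SOX10 in control-guide cells on the horizontal axis and the mean of its log2 fold changes in the cells of the 2 TADA2B guides on the vertical axis. The diagonal marks equal effects, and purple marks the 7005 genes whose effects differ. MITF, SNAI2, PCDH7 and POSTN lie to the right below zero, and CD96 lies to the left above zero.

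Some of the genes called in opposite directions are described here, and apart from MITF and CD96 they were chosen after their values were seen. MITF rose in control cells and fell with both guides (1.11 against -0.39 with guide 1 and -0.71 with guide 2, difference 1.66, SE 0.046, adjusted p = 1.35e-28); it went from 39.7 to 85.4 CPM in control cells, from 84.3 to 64.2 CPM with guide 1 and from 92.1 to 56.3 CPM with guide 2. The 3 levels with SOX10 were thus closer than the 3 without. SNAI2, at low level, also rose in control cells and fell with both guides (1.32 against -0.90 with guide 1 and -1.47 with guide 2, difference 2.51, SE 0.22, adjusted p = 1.39e-12). Its levels with SOX10 (3.16, 0.965 and 0.733 CPM) were farther apart than those without (1.27, 1.80 and 2.03 CPM). CDCP1, a transmembrane substrate of Src kinases, changed in the same directions (1.07 against -0.59 with guide 1 and -0.54 with guide 2, difference 1.64, SE 0.043, adjusted p = 2.02e-29). PCDH7, a protocadherin, rose from 8.88 to 33.6 CPM in control cells and went from 5.59 to 5.74 and 4.47 to 1.77 CPM with the guides (difference 2.57, SE 0.096, adjusted p = 4.75e-24). CD96, an adhesion receptor best known from T cells and natural killer cells, fell in control cells (-1.13) and rose with both guides (0.54 with guide 1 and 1.17 with guide 2, difference -1.98, SE 0.035, adjusted p = 2.05e-35); it overlaps ZBED2. POSTN, the matrix protein periostin, rose from 0.165 ± 0.0278 to 2.84 ± 0.214 CPM in control cells and fell with the guides (-0.64 with guide 1 and -1.11 with guide 2, difference 4.97, SE 0.25, adjusted p = 7.03e-20).

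**Figure D5:**
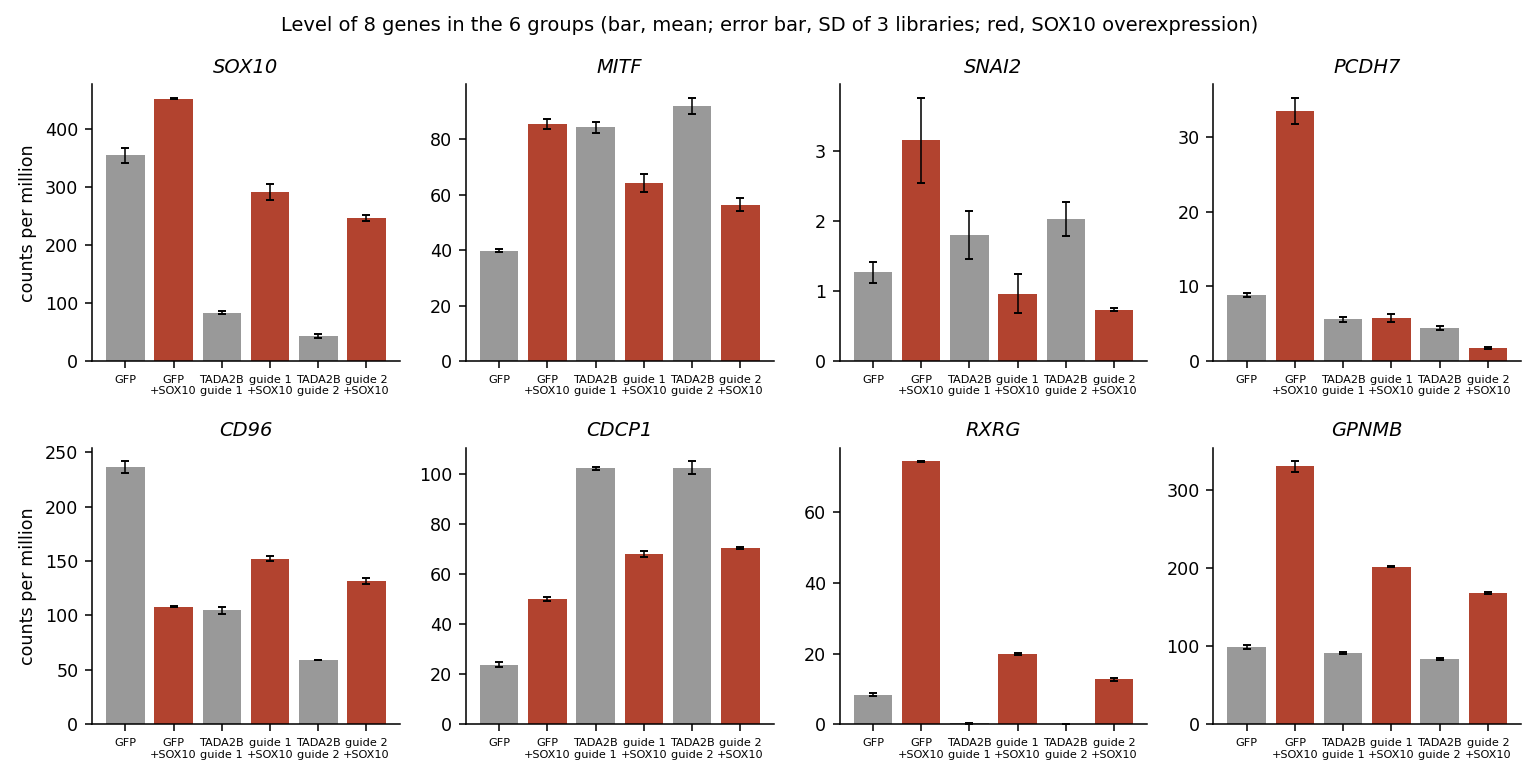
Mean level (CPM, bars from 0) of 8 genes in the 6 groups of 3 libraries, with SDs as error bars, grey without and red with SOX10 overexpression. MITF, SNAI2, PCDH7 and CDCP1 are higher with SOX10 in control-guide cells. MITF, SNAI2 and CDCP1 are lower with SOX10 under both TADA2B guides, PCDH7 under guide 2, and CD96 shows the reverse.

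Gene groups differed between the backgrounds too, here given side by side from the 2 contrasts. S phase genes were 26 lower of 30 in control cells and 19 higher and 1 lower in knockout cells, and the difference passed for 25 of the 30. CCND1 fell by 0.30 on the log2 scale in control cells and rose with both guides (0.57 with guide 1 and 0.65 with guide 2, difference -0.91, SE 0.03, adjusted p = 8.38e-26). Listed targets of p53 were 15 higher in control cells and 6 higher and 12 lower in knockout cells, with the difference passing for 12 of 23. Interferon-stimulated genes were 13 higher and 4 lower against 2 higher and 30 lower, with the difference passing for 23 of 40. MHC class II genes were 15 higher of 17 in both, with a median of 0.61 in control and 1.53 in knockout cells. G2 and M phase genes were 18 lower in control and 21 lower in knockout cells of 26. The inflammatory chemokines fell more in control cells, CXCL8 with a log2 fold change of -2.52 (knockout -1.25 with guide 1 and -0.97 with guide 2) and CXCL1 with -1.87 (knockout -0.40 with guide 1 and -0.19 with guide 2), with differences of -1.41 and -1.58 (adjusted p = 6.12e-08 and 5.84e-18).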

How the data were processed

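RNA of A375 cells was prepared with the KAPA Stranded mRNA-Seq kit, per the labels' protocols. The authors deposited raw read counts per gene for 18 libraries (58721 identifiers). Per the submitters' processing notes HISAT2, HTSeq and hg38 were used; versions, annotation and strand setting were not given in the sources used here. GENCODE 29 matched 58676 identifiers and gave coordinates and gene types. Symbols are current names looked up by Ensembl identifier, or the GENCODE 29 name where there was none. Counts were fitted with edgeR 4.0.16 in R 4.3.3: TMM scaling, filterByExpr (21060 genes kept), robust quasi-likelihood, 6 group means over 18 libraries with 12 residual degrees of freedom, so the knockout libraries inform the spread (common biological coefficient of variation 4.02%). The step was tested on simulated data. Members and gene lists were chosen with earlier results of these data known. Named genes were SOX10, MITF and TADA2B, the 12 coding genes with the largest and the 12 with the most negative fold changes, the 6 largest gains and losses in CPM, the 6 noncoding genes with the largest changes (all with a group mean of 1 CPM or more and groups apart), the 5 smallest p-values of each list and the 8 smallest for the difference from knockout cells; other members were named after their values were seen. Alternatives were other scalings, filters, limma voom 3.58.1, DESeq2 1.42.0, replicate block and leaving out each library.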

Additional observations from a re-analysis of the deposited data

Results flagged for a closer look

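For 13 genes the SOX10 effect differed between control and knockout cells by the test of the difference, among the genes singled out for it. Each value is the log2 fold change in control cells minus the mean over both knockout guides. It was 1.656 for MITF, the pigment cell regulator, 2.506 for SNAI2, 1.638 for CDCP1 and 2.565 for PCDH7, where SOX10 raised the gene in control cells and the mean over the knockout guides fell. It was -1.982 for CD96, -2.666 for IGFBP3, an insulin-like growth factor binding protein, and -1.873 for RIMKLB, where the gene fell in control cells and rose with both guides. IGFBP3 went from 95.7 to 60.7 CPM in control cells, and from 55 to 173 and 40.8 to 209.7 CPM with guides 1 and 2. RIMKLB, a glutamate ligase, went from 53.2 to 43.3 CPM, and from 66.5 to 172 and 84.1 to 289.6 CPM with the guides.

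The effect was smaller in control cells, in the same direction, for SOX10 itself (-1.799), HAPLN1 (-2.976), GAS7 (-2.924), CDH19 (-3.289), ERBB3 (-2.436) and SHROOM2 (-1.917). GAS7, a growth-arrest gene of neurons, rose from 299 to 518 CPM in control cells, and from 32.4 to 262 and 9.97 to 214 CPM with the guides. SHROOM2, an actin-binding protein, rose from 127 to 154 CPM, and from 29.5 to 116 and 20.2 to 107 CPM. Groups of 3 were too small for a check on single outlying libraries.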

How the results depend on the processing

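The count of changed genes was 7245 and ranged from 6335 to 6559 when 1 of the 6 libraries was left out, and from 6565 to 7555 under the other alternatives. With only genes at a mean of 1 CPM or more, 344 genes were at least 2-fold higher and 290 at least 2-fold lower, against 771 and 589, since fewer low genes were tested. With the replicate number as a block, 7439 genes changed over 18 libraries and 7555 over the 6, but same-numbered libraries did not deviate together (correlations -0.0059, -0.0121 and 0.0046), so the numbers were not taken as pairs. Of 298 genes examined singly 260 passed and 240 of these kept their call under each of the 17 alternatives that tested them. Besides those noted above, BBC3, CD14, EGR2, GJB1, HSP90AB1, ITGAM, MCL1, MDM2, MKI67, PAX3, VIM and ZEB1 lost it in at least 1. EGR2 lost its call in 14 alternatives, MDM2 in 7, MKI67 in 6 and ZEB1 in 5, while GJB1, HSP90AB1, ITGAM, MCL1 and PAX3 lost it in only 1. Some genes that did not pass changed sign, and their log2 values with 1 library left out were NFKB2 -0.035 to 0.00068, PMEL -0.28 to 0.34, RBFOX3 -0.058 to 0.045, SERPINE2 -0.031 to 0.0102, SOX2 -0.047 to 0.043 and THY1 -1.40 to 0.28. RBFOX3 was also 0.00050 with RLE scaling, 0.0014 by library size, 0.015 with no filter and 0.00036 with DESeq2, SERPINE2 0.0059 with no filter, and SOX2 -0.014 with upper quartile scaling. Depth limits genes under 1 CPM.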

Other observations

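The shares of called genes varied over chromosomes. Among genes at a mean of 5 CPM or more, 35.6% of the 410 on chromosome X were higher with SOX10 and 16.1% lower, with a median log2 fold change of 0.05. The other chromosomes had 14.2 to 30.6% higher. Among those that leaned the other way, chromosome 16 had 14.2% higher and 26.7% lower, chromosome 20 had 18.0% and 29.8%, chromosome 17 had 17.1% and 28.4%, and chromosome 12 had 20.5% and 30.8%. The differences between chromosomes were not tested.

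Genes called higher gained 44270 CPM in sum and genes called lower changed by -44740 CPM. Of 1656 processed pseudogenes tested, 55 were higher and 60 lower, below the 17.3% and 17.2% of all genes tested. These shares were not matched for level.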
